A study of Mus musculus with 5 samples.

Results

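Small leucine-rich proteoglycans (SLRPs) are secreted matrix proteins, and 9 genes of the family were followed on every array of the series: *Dcn*, *Bgn*, *Aspn*, *Lum*, *Fmod*, *Prelp*, *Omd*, *Ogn* and *Podn*. They were chosen by name as members of the family, out of 19505 named genes on the array, with earlier results of these data known. Each is read by 1 probe set. The arrays hold mouse 3T3-L1 cells, a clonal preadipocyte line, after 7 days of adipogenic differentiation. In the MM-3T3-L1s (n = 3) the preadipocytes had first spent 48 h in RPMI-1640 with human myeloma cells of the MM.1S line on the other side of a transwell membrane with 0.4 µm pores. In the controls (n = 2) they spent that time in the same medium alone. Both groups were washed, freed of myeloma cells where these were present, and differentiated alike with IBMX, dexamethasone and insulin. The comparison asks whether gene expression in the resulting adipocytes differs when their precursors had met soluble signals from myeloma cells. All cells come from 1 line. Whether replicates came from separate cultures is not stated, so each p reflects only the spread among these arrays, which may be technical.

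An SLRP has a core of tandem leucine-rich repeats that folds into a curved solenoid, and most members carry chondroitin, dermatan or keratan sulfate chains. The family binds fibrillar collagens and sets how fibrils assemble, and several members also hold growth factors such as TGF-beta in the matrix. In adipose tissue these proteins are known mainly as products of stromal cells and preadipocytes, which are embedded in a collagen network that is rebuilt as fat cells fill with lipid.

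The values are log2 signals. The median log2 signal was 4.48 to 4.52 in the controls and 4.47 to 4.53 in the MM-3T3-L1s, and Pearson's r between arrays, over all probe sets, ran from 0.985 to 0.993. Signals varied less from probe set to probe set on every MM.1S array than on either control. MM.1S replicates 1, 2 and 3 had SDs of 2.37, 2.37 and 2.32, and control replicates 1 and 2 had 2.39 and 2.42. A background level of 3.59 was read from 1452 olfactory, vomeronasal and taste receptor genes, and 7 of the 9 SLRP genes lay above it. Of 20 measured adipocyte markers, 18 lay above it, including *Adipoq*, which encodes adiponectin, at 11.74 in controls and 11.81 in MM-3T3-L1s. Arrays of 2 and 3 samples limit the precision, and an exact permutation test on a single gene cannot go below a two-sided p of 0.1 here.

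*Ogn*, *Fmod*, *Aspn* and *Lum* were lower in MM-3T3-L1s, by 2.80, 2.54, 1.82 and 1.63 fold. *Prelp* and *Dcn* had smaller differences in the same direction that did not pass the thresholds, and *Bgn* differed by 1.04 fold, within the spread of its arrays. *Omd* and *Podn* were read below the background level in both groups. A gene was called when limma gave an unadjusted p of 0.05 or less together with a fold change above 1.5, the thresholds that the study's methods set. By that rule 4 of 9 SLRP genes were lower, where 1.44% of all 22206 probe sets were, and 0 of 9 were higher, where 0.91% of all were. Without the fold limit, 7.58% of all probe sets had an unadjusted p of 0.05 or less in limma, both directions together. That is the share to set beside later counts at this p alone. The mean of the MM-3T3-L1s lay below that of the controls for each of the 9 genes, the share below among all probe sets being 47.2%. The median log2 fold change of the 9 genes was -0.43, against 0.01 over all probe sets. For 6 of 9, every MM.1S array lay below both control arrays, as it did for 12.2% of probe sets, and for 0 of 9 it lay above them, as it did for 11.9%. The genes were chosen with earlier results of these data known, so the shares describe them and do not test the family. After Benjamini-Hochberg adjustment over all probe sets no SLRP gene passed 0.05 in limma, nor did any other probe set, and the adjusted p of the 9 genes ranged from 0.332 to 0.873. In bulk RNA, fewer cells of a type and less RNA per cell cannot be told apart.

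**Figure D1:**
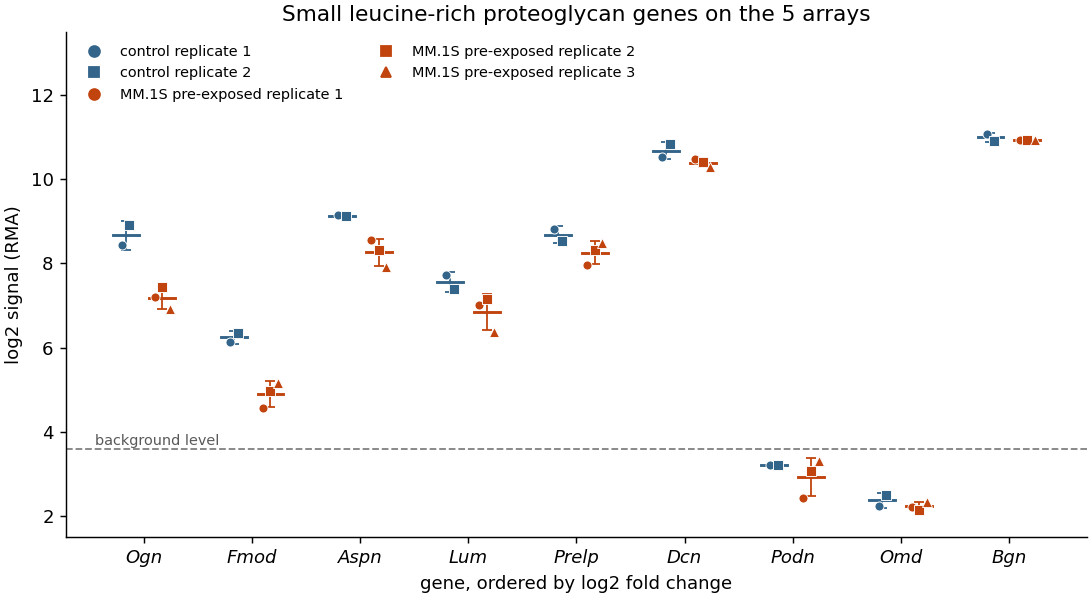
Log2 signal of the 9 SLRP genes (y axis) on each of the 5 arrays, by gene ordered by fold change (x axis). Blue symbols are the 2 controls, red symbols the 3 MM-3T3-L1 samples, horizontal bars the group means, whiskers 1 SD and the dashed line the background level of 3.59. For *Ogn* and *Fmod* the groups lie about 1 log2 unit apart, while for *Bgn* they overlap.

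The start regions of the genes are shown because 4 members were lower and others, *Bgn* among them, were not. RefSeq promoter windows of build GRCm38.p6, which run from 250 bases before a gene's start to 50 after it, were found for 7 of the 9 genes, *Lum* and *Dcn* being without one. Those of *Ogn*, *Fmod* and *Aspn*, which were lower, and of *Bgn* are given 5′ to 3′. They lie on the plus strand at chr13:49607765-49608064, chr1:134037004-134037303, chr13:49544193-49544492 and chrX:73483351-73483650. Capitals mark every match, on either strand, to the TATA box TATAAA, the CCAAT box CCAAT, the GC box GGGCGG, the AP-1 site TGANTCA or the Smad core CAGAC, and neighbouring matches may overlap.
Ogn: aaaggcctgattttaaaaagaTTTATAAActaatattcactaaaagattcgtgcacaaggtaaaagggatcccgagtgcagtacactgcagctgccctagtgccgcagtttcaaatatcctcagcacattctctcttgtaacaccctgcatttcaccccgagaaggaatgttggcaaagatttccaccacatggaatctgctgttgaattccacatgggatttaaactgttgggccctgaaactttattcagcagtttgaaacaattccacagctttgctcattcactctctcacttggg
Fmod: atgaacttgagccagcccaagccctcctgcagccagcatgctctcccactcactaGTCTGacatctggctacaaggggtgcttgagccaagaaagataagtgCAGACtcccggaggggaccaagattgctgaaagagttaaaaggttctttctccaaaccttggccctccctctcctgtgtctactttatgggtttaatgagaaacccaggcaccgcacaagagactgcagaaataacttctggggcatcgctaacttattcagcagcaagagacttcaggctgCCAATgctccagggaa
Aspn: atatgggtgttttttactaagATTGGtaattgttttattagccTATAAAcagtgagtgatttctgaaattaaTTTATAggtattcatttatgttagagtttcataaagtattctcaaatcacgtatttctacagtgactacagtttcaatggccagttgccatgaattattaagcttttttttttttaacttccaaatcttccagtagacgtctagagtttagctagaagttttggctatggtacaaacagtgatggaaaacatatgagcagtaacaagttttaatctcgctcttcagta
Bgn: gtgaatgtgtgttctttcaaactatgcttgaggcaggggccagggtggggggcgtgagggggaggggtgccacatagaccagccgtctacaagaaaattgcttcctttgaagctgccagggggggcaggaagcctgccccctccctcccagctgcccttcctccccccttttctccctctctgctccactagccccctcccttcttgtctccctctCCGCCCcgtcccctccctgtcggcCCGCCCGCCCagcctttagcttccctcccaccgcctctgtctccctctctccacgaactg

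These windows had little in common. TATAAA occurs in the windows of *Ogn* and *Aspn*, each time far upstream of the start, and in 13.6% of all 32851 windows. The 2 matches in *Ogn* overlap. CCAAT occurs in *Fmod* and *Aspn* and in 37.4% of windows, and CAGAC in *Fmod* and in 49.6%. *Bgn* alone of the 4 holds GGGCGG, with 3 matches of which 2 overlap, as 35.7% of windows do, and TGANTCA, found in 7.81%, is in none of the 4. The share of G and C was 42.3% for *Ogn*, 51.0% for *Fmod*, 31.0% for *Aspn* and 63.7% for *Bgn*, beside a median of 52.7% over all windows. Of the uncalled members not printed, *Prelp* holds CCAAT and CAGAC at 55.3% G and C, and *Omd* has no match at 37.7%. *Podn* has 2 windows, of which the first holds GGGCGG at 77.0% and the second CAGAC at 63.0%. No letter string searched here is shared by *Ogn*, *Fmod* and *Aspn*, *Lum* could not be included, and a match is only a description of the sequence.

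Among the class I members, which include the dermatan sulfate proteoglycans decorin and biglycan, 1 gene was called. *Aspn* encodes asporin, which binds collagen and restrains TGF-beta signaling and is named for a run of aspartates. Its log2 signal was 9.14 and 9.12 in the controls and 8.56, 8.32 and 7.92 in the MM-3T3-L1s. All 3 MM.1S arrays were below both controls, which were almost equal, and the lowest was MM.1S replicate 3. On the log2 scale *Aspn* fell by 0.87 (SE 0.20) with a 95% interval of -1.36 to -0.37 and an adjusted p of 0.507 in limma. *Dcn* encodes decorin, which coats collagen fibrils and sequesters TGF-beta. It was read at 10.54 and 10.83 in the controls and at 10.48, 10.42 and 10.28 in the MM-3T3-L1s, so the groups were apart by only 0.06. Its log2 fold change of -0.29 (SE 0.14) did not pass, with a 95% interval of -0.63 to 0.05. *Bgn* encodes biglycan, a relative of decorin that also engages Toll-like receptors when released from the matrix. It gave 11.08 and 10.92 in the controls and 10.94, 10.94 and 10.94 in the MM-3T3-L1s, all inside the span of the controls. The log2 fold change was -0.06 (SE 0.11), and its 95% interval of -0.33 to 0.21 excludes a change of 1.5 fold in either direction.

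Class II holds the keratan sulfate members and their relatives, and 2 of its 4 genes here were called. *Fmod* encodes fibromodulin, which binds type I collagen and guides its cross-linking. Its log2 signal was 6.14 and 6.34 in the controls and 4.56, 4.96 and 5.16 in the MM-3T3-L1s. The nearest arrays of the groups were 0.98 apart, more than the range of either group. On the log2 scale *Fmod* fell by 1.35 (SE 0.20), with an adjusted p of 0.334 in limma, and 0.108% of probe sets had a larger change in either direction. *Lum* encodes lumican, a collagen-binding proteoglycan best known from the transparent cornea. It was read at 7.72 and 7.38 in the controls and at 7.01, 7.16 and 6.37 in the MM-3T3-L1s. The groups did not overlap, but their nearest arrays were 0.23 apart and MM.1S replicate 3 lay well under the other two. On the log2 scale *Lum* fell by 0.71 (SE 0.26) with an adjusted p of 0.642 in limma. Without MM.1S replicate 3 the log2 fold change was -0.47 and below the fold limit, and the call was also lost without MM.1S replicate 1 (-0.79), control replicate 1 (-0.54) or control replicate 2 (-0.88), and under the test that the study's methods name.

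*Prelp*, whose product anchors basement membranes to the underlying collagen, gave 8.83 and 8.54 in the controls and 7.95, 8.33 and 8.48 in the MM-3T3-L1s. The groups were apart by 0.06, and the log2 fold change of -0.43 (SE 0.19, 95% interval -0.91 to 0.04) did not pass. *Omd* encodes osteomodulin, a keratan sulfate proteoglycan of bone. Its log2 signal was 2.24 and 2.50 in the controls and 2.21, 2.14 and 2.32 in the MM-3T3-L1s. Every array was more than 1 log2 unit below the background level, so no change of this transcript could be read.

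*Ogn* had the largest change of the 9 genes. It encodes osteoglycin, also called mimecan, a class III member that takes part in collagen fibril formation. Its log2 signal was 8.43 and 8.91 in the controls and 7.19, 7.44 and 6.92 in the MM-3T3-L1s. The nearest arrays of the groups were 0.99 apart, beside a range of 0.48 within the controls and 0.52 within the MM-3T3-L1s. On the log2 scale *Ogn* fell by 1.49 (SE 0.21), with a 95% interval of -2.02 to -0.96 and an adjusted p of 0.332 in limma, which placed *Ogn* at rank 35 by p of 22206 probe sets, with *Fmod* at rank 41. *Podn* encodes podocan, a collagen-binding SLRP of class V that slows the growth of smooth muscle cells. It was read at 3.21 and 3.21 in the controls and at 2.42, 3.06 and 3.30 in the MM-3T3-L1s. All of these are below the background level and the groups overlapped.

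**Figure D2:**
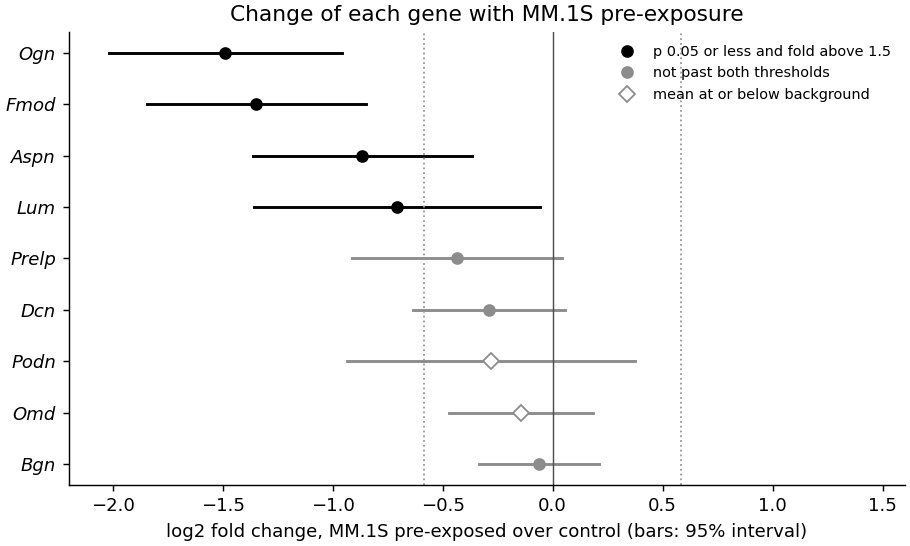
Log2 fold change of each SLRP gene in MM-3T3-L1s over controls (x axis; points) with limma's 95% interval (bars), genes on the y axis. Black marks the 4 called genes, grey the others, open diamonds the 2 genes below background and dotted lines a fold change of 1.5. The intervals of *Ogn* and *Fmod* lie wholly beyond the lower 1.5-fold line, whereas that of *Bgn* lies inside both lines.

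The 3 MM.1S arrays ordered the genes differently. In MM.1S replicate 1 and in MM.1S replicate 2 all 9 genes were below the control mean, and in MM.1S replicate 3 it was 8, *Podn* being 0.09 above. The median shift from the control mean was -0.57, -0.36 and -0.40 log2 units. For *Ogn*, *Aspn*, *Lum* and *Dcn* the lowest value was that of MM.1S replicate 3, at -1.75, -1.21, -1.19 and -0.40 from the control mean. For *Fmod*, *Prelp* and *Podn* the lowest was that of MM.1S replicate 1, at -1.68, -0.73 and -0.79, and MM.1S replicate 3 was the highest of the group. Over the 5 arrays Pearson's r was 0.92 between *Lum* and *Aspn*, 0.92 between *Ogn* and *Aspn*, 0.91 between *Fmod* and *Ogn* and 0.61 between *Lum* and *Fmod*. These values describe 5 arrays that share the contrast between the groups.

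**Figure D3:**
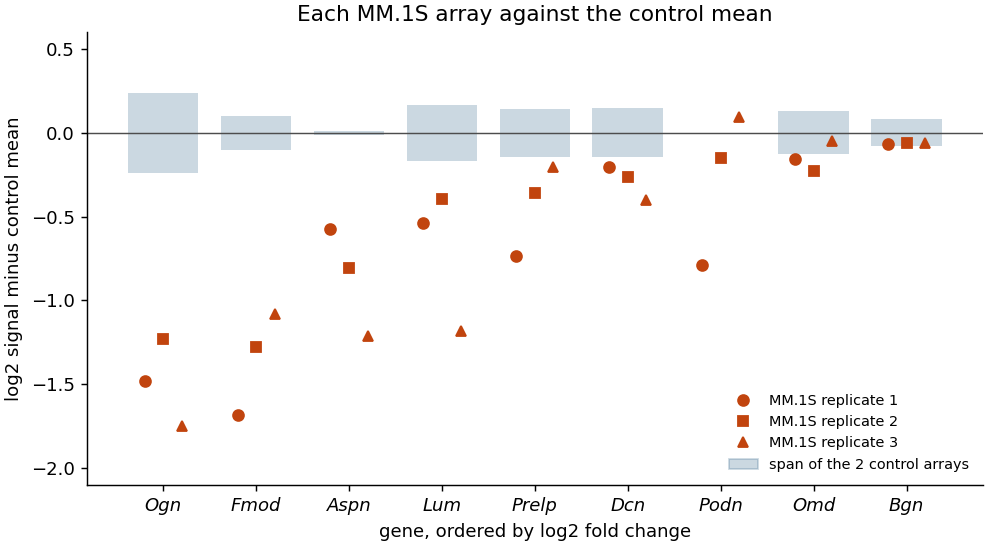
Log2 signal of each MM.1S array minus the mean of the controls (y axis), by gene (x axis). Red circles, squares and triangles are MM.1S replicates 1, 2 and 3, and the blue band is the span of the 2 controls. The triangles are lowest for *Ogn*, *Aspn*, *Lum* and *Dcn* and highest for *Fmod*, *Prelp*, *Podn* and *Omd*.

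Several SLRP genes lie side by side in the genome, by the order of protein-coding genes in RefSeq (GRCm38.p6). On chromosome 13 *Aspn*, *Omd* and *Ogn* follow one another after *Ecm2*, and all 3 overlap *Cenpp*, a centromere protein gene. *Aspn* and *Ogn* were lower, *Omd* lay below background, and *Ecm2*, an SLRP-like matrix gene with a mean below background, had a log2 fold change of -0.58 (SE 0.41) that did not pass. *Cenpp* itself was near background, with group means of 3.90 in controls and 3.37 in MM-3T3-L1s, and was not called (log2 fold change -0.53, SE 0.21). On chromosome 10 *Dcn* and *Lum* are neighbours and only *Lum* was called, while *Kera*, the next gene, which encodes the corneal SLRP keratocan, was below background. On chromosome 1 *Prelp* and *Fmod* are neighbours, and *Fmod* was called. Beyond *Fmod* lies *Btg2*, an antiproliferative gene, at 7.94 in controls and 7.96 in MM-3T3-L1s, and beyond *Ogn* lies *Nol8*, a nucleolar protein gene, with a log2 fold change of -0.21 (SE 0.14). These neighbours were looked up after the members' values had been seen, and no test of position was made.

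The other genes of the family were mostly silent here. Of 10 measured genes on a list of further SLRPs and related leucine-rich repeat proteins, 4 lay above background, 1 was lower and 0 were higher. The lower one was *Lrrc17*, a secreted leucine-rich repeat protein known in mouse to restrain osteoclast formation, at 7.65 ± 0.019 (SD, n = 2) in controls and 6.30 ± 0.53 (SD, n = 3) in MM-3T3-L1s, so that it fell by 1.34 (SE 0.30). Leaving out control replicate 1 gave 2 lower genes on this list. *Podnl1*, a relative of podocan, had a log2 fold change of -0.29 (SE 0.29). The list's median log2 fold change was -0.06.

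Of 26 other proteoglycan core proteins, 1 was lower, 0 were higher and 25 were neither, with a median of -0.09. The lower one was *Prg4*, which encodes the lubricant lubricin, at 5.23 ± 0.051 (SD, n = 2) in controls and 3.77 ± 0.19 (SD, n = 3) in MM-3T3-L1s. On the log2 scale *Prg4* fell by 1.45 (SE 0.15) with an adjusted p of 0.227 in limma. *Sdc2*, the membrane proteoglycan syndecan-2, differed by -0.56 (SE 0.13), and *Col18a1*, a basement membrane collagen with heparan sulfate chains, had -0.42 (SE 0.11). Both stayed under the fold limit with all MM.1S arrays below both controls. Leaving out MM.1S replicate 1 gave 3 lower genes on this list, and leaving out control replicate 2 or MM.1S replicate 3 gave 2.

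Genes that build the sugar chains showed few calls. Of 26 genes for the linkage region and for chondroitin or dermatan sulfate, 0 were lower and 0 higher in limma, 2 and 2 having an unadjusted p of 0.05 or less. Such a p was found for 7.58% of all probe sets, both directions together. *B3galt6*, a galactosyltransferase of the linkage region, differed by 0.48 log2 units (SE 0.14), and *Papss1*, which makes the sulfate donor, by -0.46 (SE 0.14). Leaving out control replicate 1 gave 1 lower gene. Of 12 genes for keratan sulfate, 1 was higher, 0 were lower and 11 were neither. The higher one was *Chst1*, which sulfates keratan sulfate chains, at 4.54 ± 0.39 (SD, n = 2) in controls and 5.28 ± 0.26 (SD, n = 3) in MM-3T3-L1s, a rise of 0.73 (SE 0.23). That call was lost without control replicate 2, MM.1S replicate 1 or MM.1S replicate 3, and under the test that the methods name. *St3gal1*, a sialyltransferase, differed in log2 signal by -0.40 (SE 0.17), and *B4galt1*, a galactosyltransferase, had -0.11 (SE 0.10). The medians of these lists were 0.03 and -0.05.

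Collagen genes differed in both directions, 7 of 13 having a lower mean in MM-3T3-L1s and 6 a higher one. The 7 were the fibrillar *Col1a1*, *Col1a2*, *Col2a1*, *Col3a1*, *Col5a1*, *Col5a2* and *Col11a1*. For all of them except *Col2a1*, which lay below background, every MM.1S array was below both controls. The 6 were *Col14a1*, the type VI genes *Col6a1*, *Col6a2* and *Col6a3*, and the fibrillar *Col5a3* and *Col11a2*, at 0.03 and 0.05. This split was read after the values were seen. Of 20 genes for fibrillar collagens and fibril assembly, 1 was lower, 0 were higher and 19 were neither, with a median of -0.16. All MM.1S arrays were below both controls for 10 genes, as for 12.2% of all probe sets. They were above both for 3 genes, as for 11.9% of all probe sets. *Col11a1*, a minor fibril collagen, had a log2 fold change of -0.60 (SE 0.16). It was not called without control replicate 2 or MM.1S replicate 3. *Col3a1*, type III collagen, had -0.40 (SE 0.12) and *Lox*, which cross-links collagen, had -0.35 (SE 0.11), both under the fold limit. *Col14a1*, a collagen at the fibril surface that was read below background, had 0.34 (SE 0.12), and the type VI collagen genes *Col6a1* and *Col6a3* had 0.20 (SE 0.10) and 0.17 (SE 0.11). For these last 3 genes, named after their values were seen, all MM.1S arrays lay above both controls. Of the 7 other genes of the list, among them *Lox* and *Fn1*, which encodes fibronectin, 6 had a lower mean. The summed linear signal of the list was 9730 to 10537 in controls and 8900 to 9292 in MM-3T3-L1s.

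Of 21 growth factors and receptors known to bind SLRPs, 0 were higher or lower in limma, 1 and 1 having an unadjusted p of 0.05 or less, and the median was 0.02. *Egfr*, the receptor for epidermal growth factor to which decorin binds, differed in log2 signal by -0.57 (SE 0.16), and *Tlr2*, a receptor for biglycan, had 0.28 (SE 0.11). Leaving out control replicate 2 or MM.1S replicate 3 gave 1 lower gene, and leaving out control replicate 1 gave 1 higher gene. Of 16 proteases known to cleave SLRPs, 1 was lower, 0 were higher and 15 were neither, with a median of -0.10. The lower one was *Mmp9*, a gelatinase, with a log2 fold change of -0.77 (SE 0.15). *Adamts5*, an aggrecanase, had -0.37 (SE 0.13) and *Htra1*, a secreted serine protease, had -0.44 (SE 0.17). Leaving out control replicate 1 gave 2 lower proteases, and leaving out control replicate 2 gave 1 higher one.

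**Figure D4:**
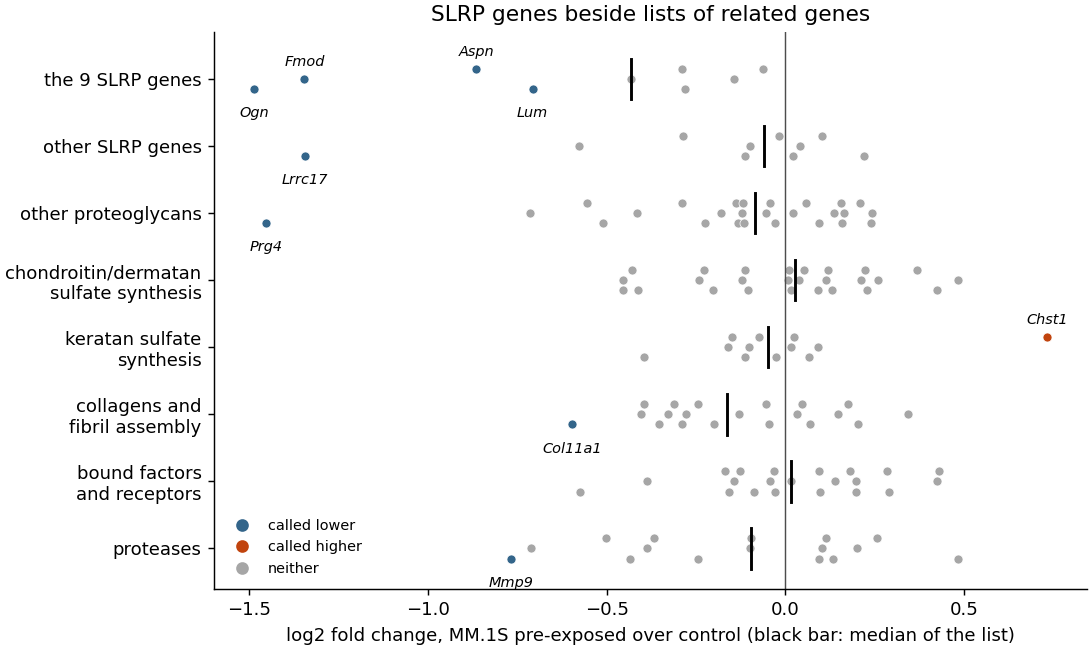
Log2 fold change in MM-3T3-L1s over controls (x axis) of each measured gene of the SLRP family and of 7 related lists (rows). Points are genes, blue called lower, red called higher and grey neither, and black bars are medians. The median is -0.43 for the 9 SLRP genes and lies between -0.16 and 0.03 for the other lists.

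Markers of cell types were read beside these values, and their part in the result was not tested. Of 20 adipocyte markers, 1 was lower and 0 were higher, with a median of 0.06. Their summed linear signal was 23869 to 26563 in controls and 25876 to 28789 in MM-3T3-L1s. The lower one was *Retn*, the adipokine resistin, with a log2 fold change of -0.63 (SE 0.23), a call that was lost without control replicate 1, control replicate 2, MM.1S replicate 2 or MM.1S replicate 3, and under the test that the methods name. *Fabp4*, the fatty acid binding protein of adipocytes, had 0.32 (SE 0.11) and *Dgat2*, an enzyme of triglyceride synthesis, 0.43 (SE 0.15). *Lep* and *Cidea* were below background in both groups. Of 15 preadipocyte and fibroblast markers, 0 were called in limma, 1 being higher and 2 lower at an unadjusted p of 0.05 or less, and the median was -0.04. Their summed signal was 8771 to 8843 in controls and 7228 to 7955 in MM-3T3-L1s, so the groups did not overlap. *Vim*, the intermediate filament vimentin, made up 47.0% to 52.7% of that sum, at 12.18 in controls and 11.85 in MM-3T3-L1s. Without *Vim* the sums were 4156 to 4183 and 3774 to 3953. *Dlk1*, the inhibitor of adipogenesis also called Pref-1, was the other lower gene, at 10.48 in controls and 10.03 in MM-3T3-L1s. It differed in log2 signal by -0.45 (SE 0.10). The difference left without *Vim* lay mainly in *Dlk1*, so the sums describe these 2 genes rather than the list. *Pdgfrb*, a receptor of stromal cells, had 0.35 (SE 0.11). *Cd34*, *Dpp4*, *Pi16*, *Fap* and *Tcf21* were below background.

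Of 13 osteoblast and chondrocyte markers, 1 was higher and 0 were lower. It was *Sp7*, the osteoblast transcription factor osterix, with a log2 fold change of 0.66 (SE 0.13) at a mean below background, and the call was lost without control replicate 1. *Sost*, the Wnt inhibitor sclerostin, had 0.47 (SE 0.18) and *Sparc*, a collagen-binding matrix protein, had -0.14 (SE 0.10). Of 7 tendon markers 0 were called in limma and 0 had an unadjusted p of 0.05 or less. *Tnmd*, which encodes tenomodulin, differed in log2 signal by -0.28 (SE 0.14) and *Thbs4*, a thrombospondin, had 0.24 (SE 0.19). The summed signal ranged from 5691 to 5784 in controls and 5197 to 5291 in MM-3T3-L1s for the bone and cartilage list, and from 460.2 to 540.6 and 530.2 to 552.9 for the tendon list. *Sparc* alone made up 92.3% to 93.4% of the former, and without it the groups overlapped, at 379.1 to 381.4 and 359.0 to 398.2. *Egr1*, an immediate early gene, made up 67.1% to 76.4% of the latter.

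Markers of blood, vessel and muscle cells were read in the same way. Of 11 plasma and B cell markers 1 lay above background, *Irf4*, of 10 endothelial markers 1, *Esam*, and 0 genes of either list were called or had an unadjusted p of 0.05 or less in limma. Leaving out control replicate 1 or MM.1S replicate 3 gave 1 higher endothelial gene. Their summed signals were 78.9 to 80.4 in controls against 85.8 to 92.5 in MM-3T3-L1s, and 56.5 to 74.8 against 76.8 to 80.0. *Cd79b* and *Mzb1* of the first list had log2 fold changes of 0.33 (SE 0.17) and 0.29 (SE 0.15), and *Erg* and *Tie1* of the second 0.37 (SE 0.17) and 0.34 (SE 0.19), all of them below background. Of 11 macrophage markers 5 lay above background and 1 was higher. It was *Cd14*, a co-receptor for bacterial lipopolysaccharide, with a log2 fold change of 0.83 (SE 0.18). Also above background but not called were *Lyz2* with 0.22 (SE 0.22), *Ptprc* with 0.12 (SE 0.13), *Fcgr1* with 0.12 (SE 0.18) and *C1qb* with -0.10 (SE 0.24). *Adgre1* and *Csf1r* were below background, as were *Cx3cr1* and *Itgam*. *Cx3cr1* and *Itgam* had 0.44 (SE 0.18) and 0.26 (SE 0.15). The summed signal of this list was 202.5 to 228.5 in controls and 291.0 to 298.6 in MM-3T3-L1s, of which *Cd14* made up 34.0% to 53.4%. The sums of the macrophage, plasma and B cell, and endothelial lists did not overlap between the groups. Without *Irf4* the plasma and B cell sums overlapped, at 62.6 to 66.9 in controls and 64.0 to 74.0 in MM-3T3-L1s. The endothelial sums without *Esam* also overlapped, at 42.7 to 51.9 and 51.7 to 56.9. Without *Cd14* the macrophage sums stayed apart, at 130.1 to 133.7 and 137.0 to 158.6. Of 12 muscle markers 7 lay above background, with smooth muscle actin, *Acta2*, at 9.04 in controls and 9.03 in MM-3T3-L1s, 0 were called in limma, 1 was called higher without control replicate 1 or MM.1S replicate 1, and 1 had an unadjusted p of 0.05 or less, *Cnn1*, a calponin, with 0.54 (SE 0.15), followed by *Ckm*, a creatine kinase, with 0.31 (SE 0.15), and the summed signal was 743.4 to 816.4 in controls and 751.3 to 770.1 in MM-3T3-L1s.

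The genes whose levels ran most like those of a called SLRP over the 5 arrays came from varied functions. Among 2255 genes above background with an SD of at least 0.3, the closest to *Ogn* by Pearson's r was *Heph*, a copper-dependent ferroxidase, at 0.995, followed by *Vrk1* and *Tmem80* at 0.993. For *Fmod* they were *Pafah1b3* (0.993), *Plekha8* (0.991) and *Ulk2* (0.990). For *Aspn* they were *Cavin2*, a coat protein of caveolae (1.00), *Lancl2* (0.995) and *Dcaf4* (0.995), and for *Lum* they were *Flcn* (0.999), *Daam1* (0.997) and *Pmepa1* (0.997). With only 5 arrays high values are common, and 127 to 170 of the 2255 genes exceeded 0.9 for each of these SLRP genes. The group mean of every one of these genes was lower in MM-3T3-L1s, as was that of the SLRP gene it resembled. The r here takes in both the contrast between the groups and the spread within them.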

How the data were processed

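Expression in 3T3-L1 adipocytes was read on 5 arrays of the type Clariom S Mouse, 2 controls and 3 samples pre-exposed to MM.1S cells, with groups and replicate numbers taken from the labels. The deposited values are log2 signals, which the authors obtained by RMA (background correction, normalization between arrays and summary per probe set) in Partek Genomics Suite. The genome build is not given in the sources used here, and RMA can shrink changes near background. All 22206 probe sets were kept. Genes were named from the platform annotation: 19572 probe sets had 1 symbol, and 2634 without a single symbol (none, or more than 1) were left unnamed. A gene with several probe sets was read from the one with the highest mean.

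The group contrast was fitted by limma 3.58.1 (lmFit, then eBayes, in R 4.3.3), two-sided and adjusted by Benjamini and Hochberg over all genes tested. Calls needed both an unadjusted p no higher than 0.05 and a fold change over 1.5, as in the study's methods. The fit was tested on simulated data. The background level is the 95th percentile of the receptor genes' means. Lists of related genes and of markers were described by counts and medians. The text names all 9 SLRP genes, every called gene of a list and up to 2 more with the smallest p, the 3 genes most like each called SLRP, and others chosen after their values were seen. The SLRP genes and lists were chosen with earlier results of these data known. Alternatives were the methods' one-way ANOVA, an intensity trend with a robust prior, a filter on dim probe sets, further quantile normalization, median centring, a replicate block, array weights, fold limits of 1.2 and 2, and leaving out each array.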

Additional observations from a re-analysis of the deposited data

How the results depend on the processing

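Over 14 alternatives, *Ogn* and *Fmod* were called lower each time and 0 SLRP genes were called higher. *Lum* lost its call in 7 and *Aspn* in 1, the fold limit of 2, which left 2 SLRP genes lower. Elsewhere 3 or 4 were lower. Of 124 recomputed log2 fold changes, 1 changed sign, that of *Bgn*, whose values without 1 array ran from -0.1425 to 0.018, the latter without control replicate 1. The adjusted p of *Ogn* from limma and the ANOVA ranged from 0.0961 with the variance prior made robust and dependent on intensity to 0.858. Among all probe sets, the ANOVA called 104 higher and 180 lower against 202 and 320, a fold limit of 1.2 gave 771 and 911, a limit of 2 gave 21 and 54, and leaving out dim probe sets gave 121 higher. Leaving out 1 array gave 216 to 352 higher, the most without control replicate 1. With the replicate block, 3 SLRP genes, 275 higher and 395 lower probe sets were called, and *Lum* was not, at -0.47. Deviations from the group means correlated at -0.03 for arrays of number 1 and 0.11 for number 2. With 2 controls the deviations of each mirror those of the other, so these values cannot tell whether equal numbers were processed together. The calls of *Col11a1* and *Retn* were also lost with the replicate block and with array weights, and those of *Col11a1* and *Sp7* with further quantile normalization. Of 420 recounts of the related and marker lists, 58 moved. *Omd* and *Podn* have no value once dim probe sets are left out, and averaging probe sets was not run, since each SLRP gene has 1. Signal near background limits what can be read of *Omd* and *Podn*.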
